A study of Mus musculus with 12 samples.

Results

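The splicing factor families are described here in the mammary gland of 5-week-old mice. They were chosen by name alone: every probe whose gene symbol begins with Srsf, Sfrs, Hnrnp, Snrp, Sf3a, Sf3b, Prpf, U2af or Rbm was taken, whatever its values. The rule found 93 of 17589 probes, which stand for 81 of 12913 genes. By family these are 12 probes for 9 SR proteins, 21 for 18 hnRNP genes, 11 for 10 Snrp genes, 4 for 3 Sf3a genes, 6 for 5 Sf3b genes, 9 for 9 Prpf genes, 2 for 2 U2af genes and 28 for 25 Rbm genes. No probe had a symbol beginning with Sfrs. A shared name is not always a shared function: Rbms1, Rbms2 and Rbms3 carry RNA recognition motifs but are named for binding single-stranded nucleic acids, and Rbm46os is a transcript from the opposite strand of another gene.

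The data were 12 microarrays with 2 colours. Total RNA of microdissected terminal end buds (6 arrays) or of microdissected mature ducts (6 arrays) was labelled with Cy5, and RNA of distal stroma free of epithelium was labelled with Cy3 on every array. Both structures and the stroma came from 5-week-old glands, and mice carrying a B-actin-GFP reporter made the gland visible for dissection, so all groups share that transgene. A terminal end bud is the club-shaped, proliferating tip that leads the growth of a duct into the fat pad in puberty, and the duct is the quieter tube left behind it.

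Each value is the deposited ratio of an array, read as log2 of epithelium over stroma, so a value of 0 is the level of the stroma and a difference of 1 is a factor of 2. The base of the logarithm is not stated in the sources used here. A natural logarithm would enlarge every fold given and change no sign, rank or p-value. Stroma was hybridised only as the partner of each array, so every comparison with it rests on 1 control sample whose own spread is not measured. No array had its dyes exchanged per the labels, so a dye effect and a difference from stroma cannot be told apart, whereas the difference of the epithelial structures is taken within 1 dye. Nothing in the labels says whether arrays came from separate animals, and the p-values then measure only the spread between arrays. The tissues are mixtures of cells, in which fewer cells of a type and less RNA per cell cannot be told apart.

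The labelled tissues were checked against markers. All 7 luminal markers and all 5 basal markers measured were called above stroma in both structures. The luminal list had array medians of 3.80 to 5.29 in terminal end buds and 3.30 to 4.09 in ducts. The basal list had medians of 1.61 to 2.38 in terminal end buds and 2.19 to 3.02 in ducts. Between the structures 3 luminal markers were called higher in terminal end buds and 1 basal marker, Krt14, lower. The part of this shift in the results below was not tested. Ratios spread more widely on the terminal end bud arrays, with a standard deviation over all probes of 0.535 to 0.635, than on the duct arrays, with 0.380 to 0.484. Terminal end bud replicate 3 had the lowest median correlation with its own group (0.713, others 0.794 to 0.847), as did duct replicate 4 (0.625, others 0.669 to 0.757). The array titles carry running numbers, whose meaning is not stated, with a gap between the 4 early arrays (2 of each structure) and the 8 late ones. Calls of members that rest on single arrays are named where they occur. Dependence on 1 of these runs is mostly given as counts, not gene by gene.

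Splicing removes introns from pre-mRNA in the spliceosome, which is assembled from the U1, U2, U4, U5 and U6 small nuclear ribonucleoproteins (snRNPs). Sm proteins form a ring around most of their RNAs, U1 recognises the donor site, the U2 auxiliary factor and the U2 proteins of the Sf3a and Sf3b complexes select the branch point, and the Prpf proteins, named after yeast precursor RNA processing mutants, join with U4, U5 and U6 or act in later steps. SR proteins generally promote the use of exons through their arginine- and serine-rich tails, and hnRNP proteins coat nascent RNA and often oppose them. The balance of both groups differs between cell types and alters which exons a transcript keeps.

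The first comparison asked how terminal end buds differ from ducts. Of the 93 probes, 22 were higher in terminal end buds (23.7%, against 8.32% of all probes), 14 were lower (15.1%, against 10.4% of all probes) and 57 did not pass the test. The test was limma on all probes, with an adjusted p below 0.05. Within the 4 early arrays alone 5 of the 93 probes were higher and 10 lower, against 2.16% and 3.66% of all probes. Within the 8 late ones 17 were higher and 8 lower, against 5.62% and 8.12% of all probes. The median difference of the 93 probes was 0.01, against 0.00033 over all probes. On 16 of the 93 probes every terminal end bud array lay above every duct array (17.2%, against 4.42% of all probes), and on 7 every one lay below (7.53%, against 5.79%). The calls ran by family: 6 of 11 Snrp probes were higher and 0 lower, as were 2 of 4 Sf3a probes with 0 lower, whereas the hnRNP probes divided into 4 higher and 4 lower, the SR probes into 1 and 2, the Sf3b probes into 2 and 1, the Prpf probes into 2 and 2, and the Rbm probes into 4 and 5. Of the 2 U2af probes 1 was higher. Family medians of the difference were 0.44 for Snrp, 0.35 for Sf3a, 0.51 for U2af and 0.16 for Sf3b, against 0.02 for Prpf, −0.03 for Rbm, −0.05 for hnRNP and −0.08 for SR proteins.

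**Figure D1:**
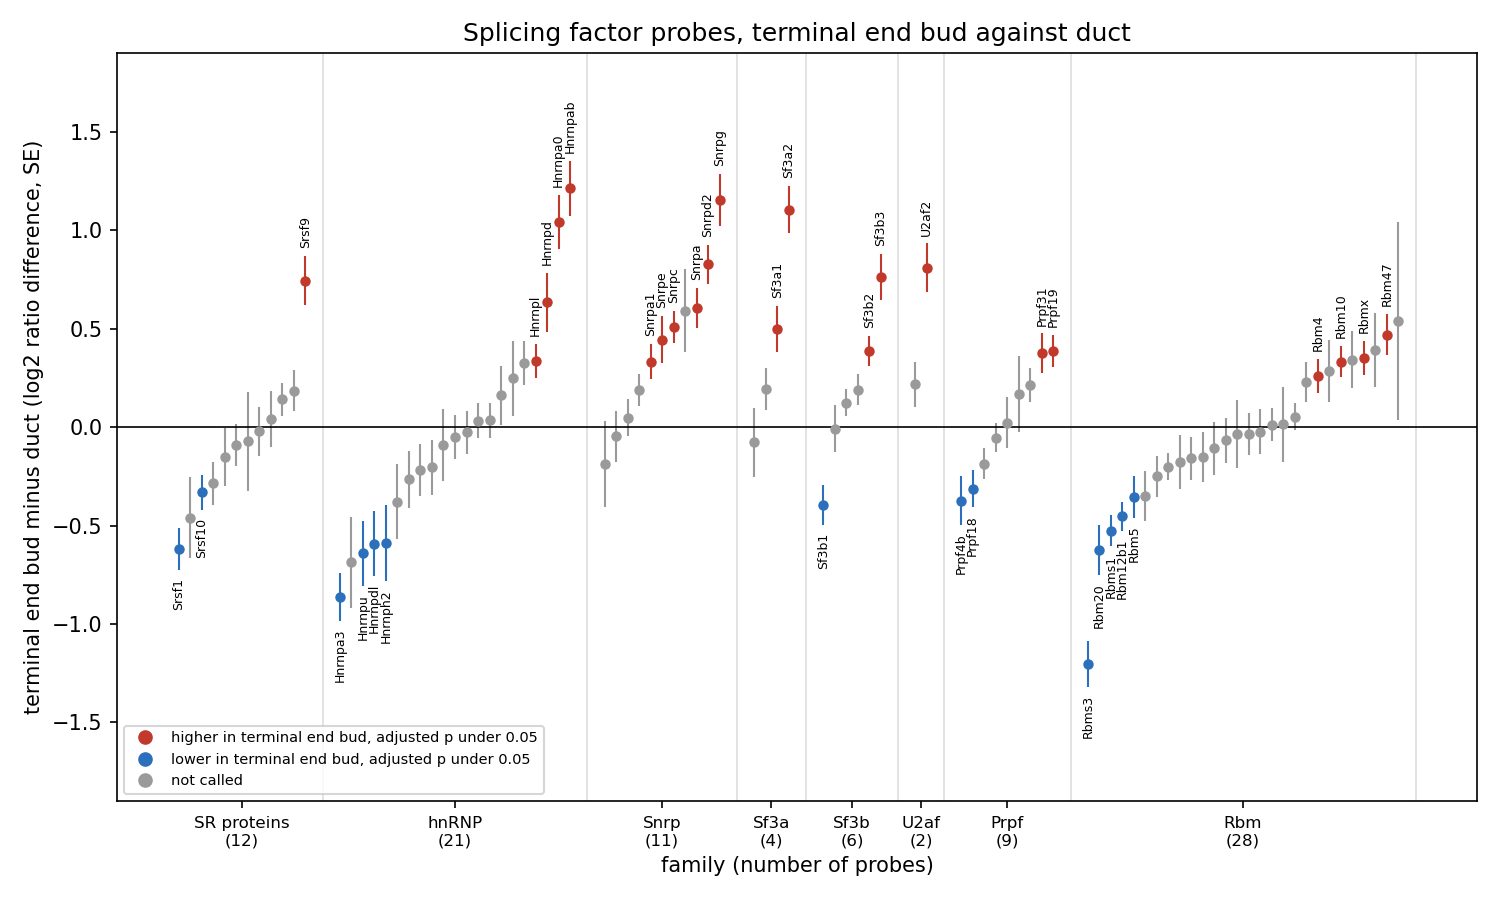
Difference in log2 ratio between terminal end bud and duct for each of the 93 probes (points, with the standard error of the fit), grouped by family along the horizontal axis and sorted within it. Called probes are coloured and named; 6 of 11 Snrp probes are above 0 and called, while the hnRNP and Rbm families hold called probes on both sides.

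The members were also sorted by their place in the spliceosome, with 1 probe per gene. Over all probes 8.32% were higher and 10.4% lower. Of 6 genes of the Sm ring 3 were higher and 0 lower, and the difference was above 0 in all 6 on the probes used. The other probe of Snrpn, a gene of the ring, was at −0.05. Both genes of U1-specific proteins were higher, and of 10 genes of U2 proteins 5 were higher and 1 lower. Among these 5 are Sf3a1 and Sf3b3, whose other probes were not called. Of 5 genes of the tri-snRNP of U4, U5 and U6 1 was higher and 0 lower. These are counts over few genes, and no test compared the roles with each other.

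**Figure D2:**
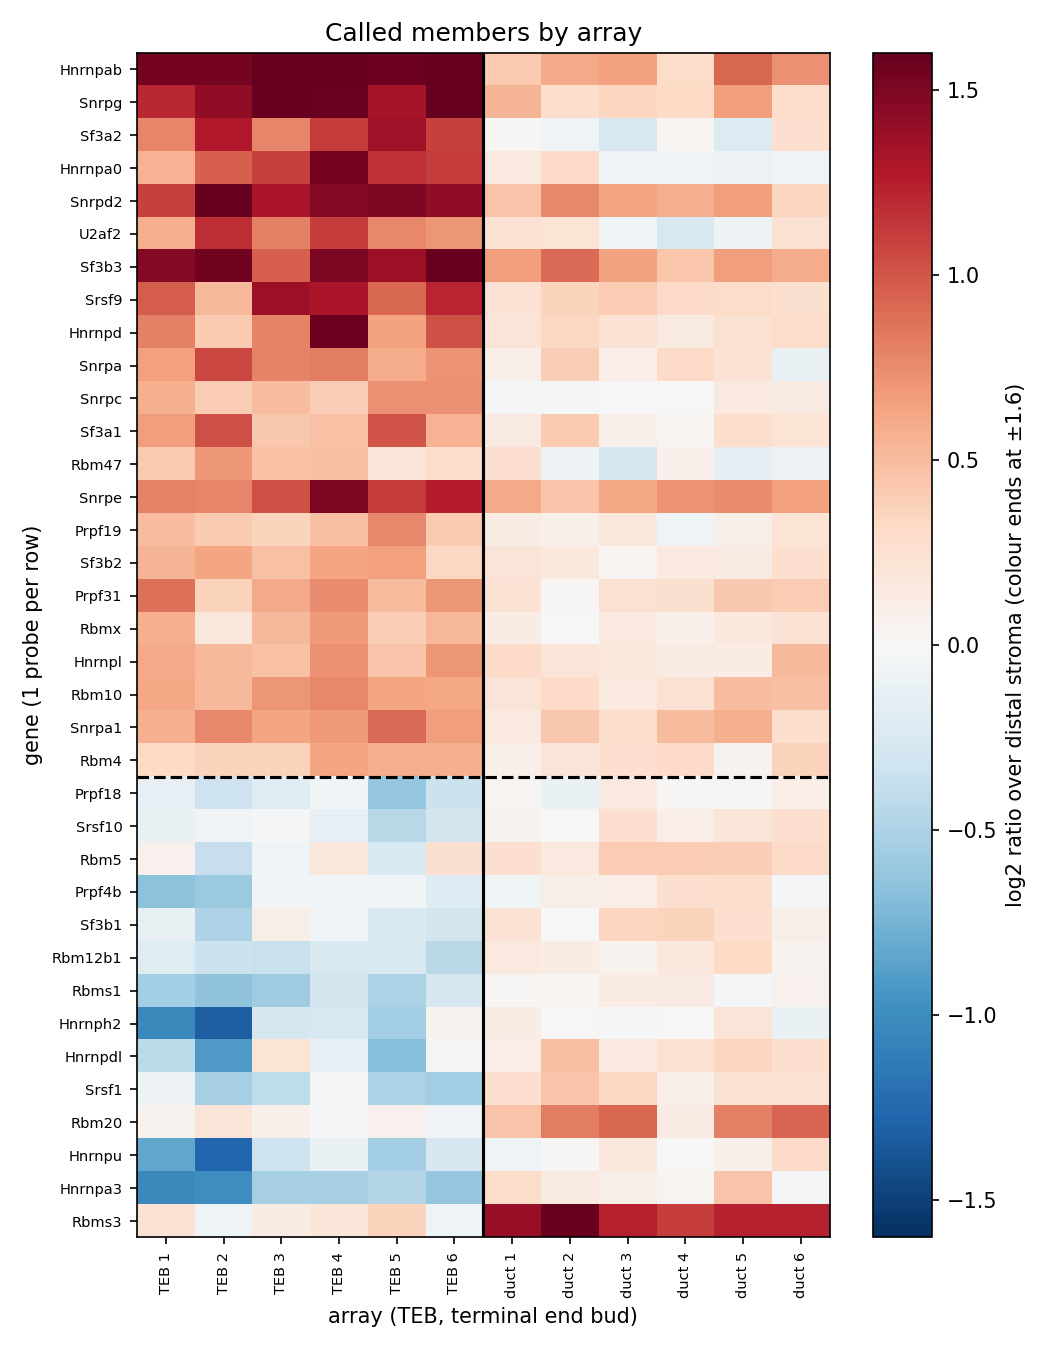
Log2 ratio over distal stroma of the 36 called probes on each array, terminal end bud arrays (TEB) left of duct arrays, sorted by the difference. The 22 probes above the dashed line are higher in terminal end buds and mostly red there and pale in ducts, and the 14 below it are lower and mostly blue there.

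Marker lists of other cells differed in the same comparison. Of 18 measured markers of dividing cells 13 were higher in terminal end buds and 0 lower, and the list's array medians were 1.03 to 1.97 in terminal end buds and 0.04 to 0.71 in ducts. The endothelial list (6 of 7 measured, all 6 lower) had medians of −1.62 to −1.19 in terminal end buds and −0.60 to −0.17 in ducts, and the adipocyte list (8 of 10 measured, 4 lower) −1.78 to −1.29 and −0.71 to −0.34. The 6 fibroblast markers, of which 1 was lower, had medians of −0.23 to 0.42 in terminal end buds and 0.09 to 1.28 in ducts. All of these stood beside the splicing factor results below, and their part in them was not tested.

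**Figure D3:**
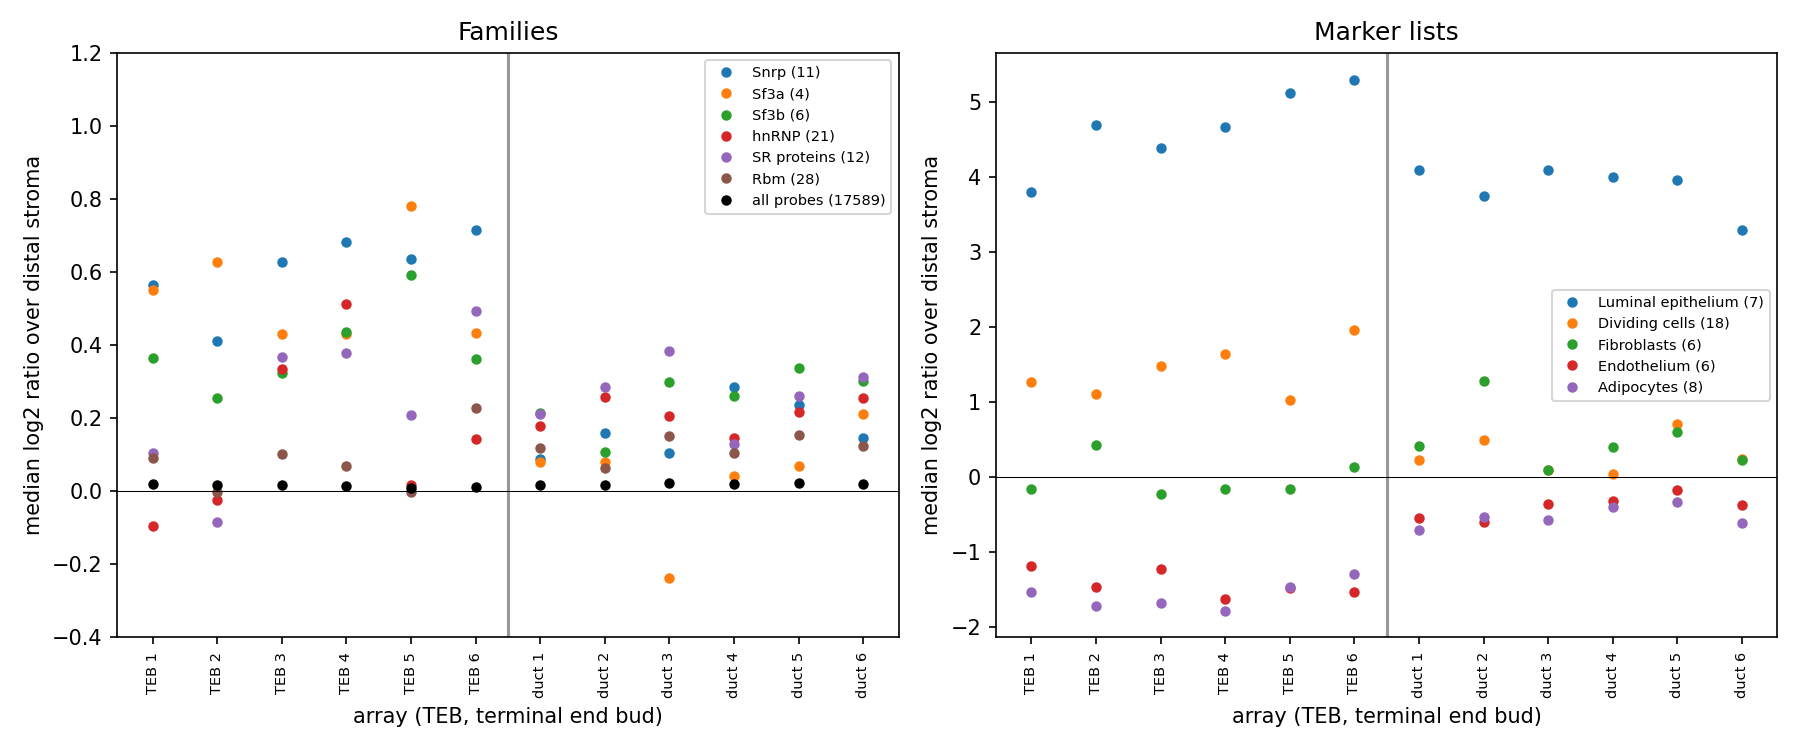
Median log2 ratio over distal stroma on each array for 6 families and for all probes (left) and for 5 marker lists (right), terminal end bud arrays (TEB) left of duct arrays. The Snrp medians lie between 0.41 and 0.72 in terminal end buds and 0.09 and 0.29 in ducts, while the hnRNP medians overlap; markers of dividing cells lie between 1.03 and 1.97 in terminal end buds and 0.04 and 0.71 in ducts.

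Promoter sequence was looked at because the called Snrp and Sf3a members were all higher. RefSeq gives a promoter on build GRCm38.p6 for 70 of the 81 genes, of which 19 have several starts and were read from the first listed. The 250 bases before the start were searched on both strands for letters of common promoter elements. The ETS letters CCGGAAG were in 17 of 70 member promoters (24.3%), against 10.8% of 10292 promoters of genes on the array. They were in 8 of 21 promoters of genes higher in terminal end buds (38.1%), in 1 of 11 of genes lower there (9.09%) and in 8 of 38 of genes not called (21.1%). In the Sf3a and Sf3b families 6 of 7 promoters held them (85.7%), those of Sf3a3 and Sf3b6, not called between the structures, included. In the Snrp family 3 of 8 did (37.5%), namely Snrpg, Snrpc and Snrpb2, the last not called. The promoters of Snrpe, Snrpd2, Snrpa and Snrpa1, all called higher, held none. CCAAT was in 48.6% of member promoters, against 35.8% of array genes, and in 12 of 17 hnRNP promoters. The letters TTCCCGC of E2F sites were in 12.9% of member promoters and 5.78% of array genes, TATAAA in 12.9% and 9.43%, CACGTG in 5.71% and 7.77%, GCATGCG of NRF1 sites in 2.86% and 4.69%, and AAGATGG of YY1 sites in 1.43% and 4.25%. Other letters were split by call too, into promoters of genes higher in terminal end buds, lower there and not called. In that order CCAAT was in 47.6%, 36.4% and 52.6%, the E2F letters in 4.76%, 18.2% and 15.8%, and TATAAA in 14.3%, 9.09% and 13.2%. None of these strings contains another, and a match describes letters and shows no bound factor.

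The promoters of 4 genes higher in terminal end buds and of the SR protein with opposite calls against stroma are printed to show these letters in place, 5′ to 3′ along the gene's strand, each ending at the base before the start, with the letters searched for in capitals. Snrpg lies on the plus strand and its window is chr6:86371290-86371539, with ETS letters beginning 145 bases and CCAAT on the other strand 66 bases before the start. Snrpc lies on the plus strand at chr17:27839837-27840086, with ETS letters at 39 bases. Snrpg and Snrpc are the only Snrp genes called higher whose promoters hold the ETS letters. Sf3a2 lies on the plus strand at chr10:80798485-80798734, with ETS letters at 76 bases. Hnrnpab lies on the minus strand at chr11:51606882-51607131 and holds CCAAT or its complement at 193, 84 and 41 bases, with no ETS letters as spelled here. Srsf1 lies on the plus strand at chr11:88047123-88047372, with E2F letters at 66 bases and neither CCAAT nor the ETS letters.
Snrpg: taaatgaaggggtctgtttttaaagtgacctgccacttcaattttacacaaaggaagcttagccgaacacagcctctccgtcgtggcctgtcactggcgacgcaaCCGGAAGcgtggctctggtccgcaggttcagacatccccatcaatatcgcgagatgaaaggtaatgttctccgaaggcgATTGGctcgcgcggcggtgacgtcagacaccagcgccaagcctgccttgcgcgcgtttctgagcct
Snrpc: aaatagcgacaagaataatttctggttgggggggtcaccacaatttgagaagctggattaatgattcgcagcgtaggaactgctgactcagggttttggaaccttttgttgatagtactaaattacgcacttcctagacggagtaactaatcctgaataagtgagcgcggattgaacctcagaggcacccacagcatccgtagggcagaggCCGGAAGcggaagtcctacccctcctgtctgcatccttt
Sf3a2: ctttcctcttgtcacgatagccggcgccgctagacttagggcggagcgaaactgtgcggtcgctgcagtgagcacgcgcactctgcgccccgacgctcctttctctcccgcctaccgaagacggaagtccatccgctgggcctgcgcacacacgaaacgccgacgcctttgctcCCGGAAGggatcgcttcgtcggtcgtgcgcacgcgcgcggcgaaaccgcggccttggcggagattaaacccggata
Hnrnpab: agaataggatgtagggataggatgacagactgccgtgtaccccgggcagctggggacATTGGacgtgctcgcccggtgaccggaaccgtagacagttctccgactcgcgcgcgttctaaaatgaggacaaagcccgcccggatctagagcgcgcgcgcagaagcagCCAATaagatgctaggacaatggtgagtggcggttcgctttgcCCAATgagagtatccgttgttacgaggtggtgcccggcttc
Srsf1: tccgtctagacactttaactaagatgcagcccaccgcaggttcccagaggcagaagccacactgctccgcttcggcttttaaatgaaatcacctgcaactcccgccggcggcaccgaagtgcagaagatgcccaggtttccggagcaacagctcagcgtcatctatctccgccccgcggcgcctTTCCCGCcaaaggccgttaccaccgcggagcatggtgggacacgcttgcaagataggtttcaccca

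The Snrp genes, which encode proteins of the Sm ring and partners of U1 and U2 RNA, held 6 higher and 0 lower calls between the structures. Snrpg, a protein of the Sm ring, had ratios of 1.21, 1.50 and 1.98 (lowest, median and highest of 6 arrays) in terminal end buds and 0.28, 0.33 and 0.67 in ducts. The difference was 1.15 (SE 0.13), a 2.22-fold higher level, with an adjusted p of 5.38e-05 in limma, and no arrays overlapped. Snrpd2, another protein of the ring, had 1.09, 1.44 and 1.64 in terminal end buds and 0.34, 0.60 and 0.77 in ducts, a difference of 0.83 (SE 0.10, limma adjusted p = 8.02e-05). It too was apart on all arrays, and both genes were above stroma in ducts as well. Snrpe, also of the ring, had 0.78, 1.07 and 1.51 in terminal end buds and 0.45, 0.64 and 0.75 in ducts, with a smaller difference of 0.44 (SE 0.12, limma adjusted p = 0.0162). That call was lost when arrays were brought to the same distribution of ratios by quantile normalization (difference 0.13, adjusted p = 0.47) and when they were scaled to a common spread (0.27, adjusted p = 0.091).

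Snrpd1, the partner of Snrpd2 in the ring, had ratios of 0.41, 0.96 and 1.65 in terminal end buds and 0.16, 0.38 and 0.78 in ducts. Its difference of 0.59 had a larger standard error (0.21) and did not pass the test (limma adjusted p = 0.0657). Snrpb, which encodes the SmB proteins of the ring, lay near the stroma in both structures, at −0.29, −0.06 and 0.03 in terminal end buds and −0.42, −0.13 and 0.06 in ducts (difference 0.05, adjusted p = 0.786). The imprinted Snrpn, which encodes a close relative of SmB made mainly in brain, has 2 probes, whose differences were 0.19 (adjusted p = 0.143) and −0.05 (adjusted p = 0.863). Neither probe was called above stroma. Both were called below it in ducts (means −0.20 and −0.33, limma adjusted p of 0.0211 and 0.0158). In terminal end buds the second was called below stroma (−0.37, adjusted p = 0.00404) and the first was not. The first lay at −0.18, −0.04 and 0.28 in terminal end buds and −0.32, −0.19 and −0.08 in ducts, and the second at −0.65, −0.47 and 0.23 and at −0.55, −0.30 and −0.20. So 3 of the 6 measured genes of the ring passed the test and 3 did not.

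Snrpa, which binds a stem-loop of U1 RNA, had ratios of 0.59, 0.76 and 1.07 in terminal end buds and −0.12, 0.17 and 0.39 in ducts, a difference of 0.61 (SE 0.10, limma adjusted p = 0.000935). Snrpc, the U1 protein that steadies pairing with the donor site, had 0.40, 0.53 and 0.73 in terminal end buds and lay close to 0 in ducts, with −0.03, 0.001 and 0.16. Its difference was 0.51 (SE 0.08, limma adjusted p = 0.000593), and for both U1 genes the arrays of the structures were apart. Of the U2 partners, Snrpa1 had 0.56, 0.68 and 0.91 in terminal end buds and 0.15, 0.36 and 0.57 in ducts (difference 0.33, SE 0.09, limma adjusted p = 0.0168), a call that quantile normalization ended (0.18, adjusted p = 0.23), as did the common spread (0.26, adjusted p = 0.11). Snrpb2, which pairs with Snrpa1 on U2 RNA, was instead below the stroma in terminal end buds (mean −0.54, adjusted p = 0.011). Its arrays ran from −1.48 over −0.33 to −0.20 in terminal end buds and from −0.93 over −0.21 to 0.01 in ducts, with a difference of −0.19 that did not pass (adjusted p = 0.629).

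In the Sf3a complex, which joins U2 to the branch point, Sf3a2 stood out. Its ratios were 0.78, 1.10 and 1.35 in terminal end buds and −0.25, −0.03 and 0.27 in ducts, with no overlap. The difference of 1.10 (SE 0.12, limma adjusted p = 3.69e-05) is a 2.15-fold higher level, and the duct mean did not pass against stroma (−0.04, adjusted p = 0.8). Sf3a1, the largest subunit, had 0.43, 0.61 and 1.03 in terminal end buds and 0.05, 0.18 and 0.42 in ducts (difference 0.50, SE 0.12, limma adjusted p = 0.00808), and its other probe gave 0.19 (adjusted p = 0.253). Quantile normalization took the first probe of Sf3a1 just past the threshold (0.37, adjusted p = 0.051). Sf3a3, the remaining subunit, had −1.17, −0.16 and 0.03 in terminal end buds and −0.59, −0.23 and −0.09 in ducts, a difference of −0.08 (adjusted p = 0.827). So 2 of the 3 subunits were called and Sf3a3 was not.

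The Sf3b complex held calls in both directions. Sf3b3, a scaffold subunit, had 0.95, 1.49 and 1.69 in terminal end buds and 0.45, 0.66 and 0.91 in ducts, a difference of 0.76 (SE 0.12, limma adjusted p = 0.000435), while its second probe, with 0.07, 0.21 and 0.56 and −0.06, 0.31 and 0.61, gave −0.01 (adjusted p = 0.976). Sf3b2 had 0.33, 0.59 and 0.65 in terminal end buds and 0.03, 0.16 and 0.26 in ducts (difference 0.39, SE 0.08, limma adjusted p = 0.00252). Sf3b1, which clasps the branch point and is often mutated in blood cancers, went the other way. It had −0.49, −0.18 and 0.09 in terminal end buds and −0.01, 0.25 and 0.36 in ducts, a difference of −0.39 (SE 0.10, limma adjusted p = 0.0147). The small subunits Sf3b5 (difference 0.19, adjusted p = 0.123) and Sf3b6 (0.12, adjusted p = 0.27) did not pass, although Sf3b6 was above stroma on all arrays, at 0.39 to 0.63 in terminal end buds and 0.26 to 0.44 in ducts.

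The U2 auxiliary factor is a pair of proteins that reads the end of the intron. U2af2, the subunit that binds the pyrimidine tract, had 0.58, 0.79 and 1.18 in terminal end buds and −0.25, 0.08 and 0.25 in ducts, a difference of 0.81 (SE 0.12, limma adjusted p = 0.000433) without overlap. U2af1, which reads the acceptor dinucleotide, had 0.31, 0.49 and 0.91 in terminal end buds and 0.20, 0.36 and 0.53 in ducts. Its difference of 0.22 did not pass (adjusted p = 0.227), and it was above stroma in both structures.

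The hnRNP family held both the highest and some of the lowest differences. Hnrnpab, a protein that binds RNA and single-stranded DNA, had 1.53, 1.81 and 2.15 in terminal end buds and 0.29, 0.62 and 0.92 in ducts. Its difference of 1.21 (SE 0.14, limma adjusted p = 5.54e-05), a 2.32-fold higher level, was the largest increase among the 93 probes. Hnrnpa0, which binds AU-rich messages, had 0.56, 1.11 and 1.53 in terminal end buds and −0.10, −0.06 and 0.31 in ducts, a difference of 1.04 (SE 0.14, limma adjusted p = 0.000135), with ducts close to 0. Hnrnpd, known for its part in the turnover of AU-rich messages, had 0.41, 0.80 and 1.57 in terminal end buds and 0.15, 0.23 and 0.33 in ducts (difference 0.63, SE 0.15, limma adjusted p = 0.00811). These 3 genes had no overlapping arrays. Hnrnpl, a binder of CA repeats, had 0.45, 0.56 and 0.72 in terminal end buds and 0.12, 0.19 and 0.52 in ducts (difference 0.34, SE 0.09, limma adjusted p = 0.013), and lost the call under quantile normalization (0.20, adjusted p = 0.22) and with the common spread (0.26, adjusted p = 0.069).

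Of the hnRNP genes that were lower in terminal end buds, Hnrnpa3 had the largest decrease. Its ratios were −1.03, −0.57 and −0.46 in terminal end buds and −0.02, 0.12 and 0.46 in ducts, a difference of −0.86 (SE 0.12, limma adjusted p = 0.000229), and the level was 0.55-fold that of ducts. A second Hnrnpa3 probe had −0.56, 0.12 and 0.75 and 0.28, 0.51 and 0.66, and its difference of −0.38 did not pass (adjusted p = 0.207). Hnrnpu, a nuclear scaffold protein, had −1.27, −0.43 and −0.10 in terminal end buds and −0.07, 0.05 and 0.30 in ducts (difference −0.64, SE 0.17, limma adjusted p = 0.0137). Hnrnpdl, a relative of Hnrnpd, had −0.91, −0.27 and 0.21 in terminal end buds and 0.10, 0.26 and 0.48 in ducts (difference −0.59, SE 0.16, limma adjusted p = 0.0204), so that the relatives Hnrnpd and Hnrnpdl were called in opposite directions. Hnrnph2, a binder of runs of G, had −1.31, −0.41 and 0.05 in terminal end buds and −0.11, −0.01 and 0.20 in ducts (difference −0.59, SE 0.19, limma adjusted p = 0.0473). The Hnrnph2 call held in 3 of the 12 fits that left out 1 array, with an adjusted p of 0.1 without terminal end bud replicate 1, and its difference was −1.24 within the early arrays and −0.27 within the late ones.

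Some of the best known hnRNP genes did not separate the structures. Hnrnpa1, the abundant shuttling protein that opposes SR proteins, had 0.68, 1.02 and 1.78 in terminal end buds and 0.50, 0.90 and 1.18 in ducts (5 duct arrays, since 1 value was missing), a difference of 0.25 (adjusted p = 0.447). It was among the members most above stroma in both, with means of 1.11 in terminal end buds and 0.86 in ducts. Hnrnpa2b1 had −0.27, −0.17 and 0.86 in terminal end buds and −0.34, 0.09 and 0.38 in ducts (difference −0.09, adjusted p = 0.802). Hnrnpc, which covers uridine tracts, had −0.09, 0.17 and 0.67 in terminal end buds and 0.13, 0.47 and 0.82 in ducts (difference −0.26, adjusted p = 0.257). It was called above stroma in ducts and not in terminal end buds, but the test between the structures did not pass. Hnrnph1, the closest relative of Hnrnph2, had −0.79, −0.01 and 0.59 in terminal end buds and 0.44, 0.64 and 0.85 in ducts. Its difference of −0.69 just missed the threshold (SE 0.23, adjusted p = 0.0543) and passed it under quantile normalization (−0.82, adjusted p = 0.014). The 13 hnRNP probes that did not pass had differences of −0.69 to 0.33.

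Among the SR proteins 1 gene was higher and 2 were lower. Srsf9 had 0.52, 1.09 and 1.37 in terminal end buds and 0.23, 0.30 and 0.41 in ducts, a difference of 0.74 (SE 0.13, limma adjusted p = 0.0009), with all arrays apart. Srsf1, the founding member of the family and an oncogenic protein when raised in mammary cells, had −0.56, −0.46 and −0.03 in terminal end buds and 0.08, 0.25 and 0.45 in ducts. Its difference of −0.62 (SE 0.11, limma adjusted p = 0.00111) placed it below stroma in terminal end buds (adjusted p = 0.00156) and above stroma in ducts (adjusted p = 0.0171), with no overlap. The second Srsf1 probe had −0.46, 0.04 and 0.15 and −0.07, 0.06 and 0.13 and differed by −0.09 (adjusted p = 0.629), so the probes do not give 1 answer for the gene. Srsf10, a splicing repressor when it loses its phosphates, had −0.45, −0.12 and −0.02 in terminal end buds and 0.002, 0.15 and 0.27 in ducts (difference −0.33, SE 0.09, limma adjusted p = 0.0165).

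The other SR proteins did not pass as deposited. Srsf3, which also aids RNA export, had overlapping ratios in both structures, 0.41, 0.74 and 1.02 in terminal end buds and 0.54, 0.72 and 1.04 in ducts (difference −0.02, adjusted p = 0.938). Its means of 0.72 and 0.75 were both above stroma. Srsf2 gave −0.15 (adjusted p = 0.556) and 0.04 (adjusted p = 0.886) on 2 probes, of which the second was above stroma in terminal end buds (0.65) and ducts (0.61) and the first was in neither (−0.08 and 0.07). Srsf5 (difference −0.46, adjusted p = 0.153) and Srsf6 (−0.29, adjusted p = 0.0862) were called lower under quantile normalization (−0.67, adjusted p = 0.023 and −0.47, adjusted p = 0.01) and with the common spread. Srsf4 (0.14, adjusted p = 0.308) was above stroma in both.

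Of the 9 Prpf genes 2 were higher, 2 were lower and 5 did not pass, the last with differences of −0.19 to 0.21. Prpf19, the ubiquitin ligase that gives its name to the complex activating the spliceosome, had 0.35, 0.45 and 0.77 in terminal end buds and −0.07, 0.11 and 0.22 in ducts (difference 0.39, SE 0.08, limma adjusted p = 0.00433). Prpf31, which ties U4 to U5 and U6 and is mutated in a form of retinitis pigmentosa, had 0.37, 0.66 and 0.89 in terminal end buds and 0.02, 0.25 and 0.43 in ducts (difference 0.38, SE 0.10, limma adjusted p = 0.0155), a call lost under quantile normalization (0.25, adjusted p = 0.13) and with the common spread (0.29, adjusted p = 0.065). Prpf8, the protein at the catalytic centre, did not pass, with −0.78, 0.10 and 0.64 in terminal end buds and −0.41, −0.08 and 0.14 in ducts (difference 0.17, adjusted p = 0.626). Prpf18, a factor of the second catalytic step, had −0.62, −0.26 and −0.04 in terminal end buds and −0.10, 0.03 and 0.15 in ducts (difference −0.31, SE 0.10, limma adjusted p = 0.0345), and Prpf4b, a kinase, −0.65, −0.12 and −0.04 and −0.07, 0.10 and 0.28 (difference −0.37, SE 0.12, limma adjusted p = 0.0497). Both lower calls were fragile, since that of Prpf18 held in 4 of 12 fits without 1 array (adjusted p of 0.075 without duct replicate 3) and that of Prpf4b in 3 of 12 (0.1 without duct replicate 5).

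The Rbm genes, united by little more than an RNA recognition motif, included the largest decrease of all. Rbms3 had −0.07, 0.16 and 0.36 in terminal end buds and 1.10, 1.24 and 1.79 in ducts, a difference of −1.20 (SE 0.12, limma adjusted p = 1.46e-05), and its level in terminal end buds was 0.43-fold that of ducts. It did not pass against stroma in terminal end buds (0.13, adjusted p = 0.23), and in ducts it was the only member at least 1 above stroma. Rbms1 had −0.64, −0.52 and −0.26 in terminal end buds and −0.02, 0.05 and 0.13 in ducts (difference −0.53, SE 0.08, limma adjusted p = 0.000433), again without overlap. Rbms2, the last gene of that name, differed by 0.28 and did not pass (adjusted p = 0.259). Rbm20, a regulator of titin splicing in heart, had −0.06, 0.06 and 0.21 in terminal end buds and 0.13, 0.81 and 0.94 in ducts (difference −0.62, SE 0.13, limma adjusted p = 0.00341).

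Rbm12b1 had −0.45, −0.30 and −0.20 in terminal end buds and 0.05, 0.14 and 0.32 in ducts, a difference of −0.45 (SE 0.07, limma adjusted p = 0.000606), below stroma in terminal end buds and above it in ducts. Rbm5, a regulator of exon choice in apoptosis genes, had −0.37, −0.0015 and 0.26 in terminal end buds and 0.16, 0.35 and 0.41 in ducts (difference −0.35, SE 0.11, limma adjusted p = 0.0329), and its call held in 4 of 12 fits without 1 array (adjusted p of 0.073 without terminal end bud replicate 5). Its relative Rbm10 was the reverse, with 0.52, 0.63 and 0.77 in terminal end buds and 0.16, 0.27 and 0.49 in ducts (difference 0.33, SE 0.08, limma adjusted p = 0.00908), a call lost under quantile normalization (0.19, adjusted p = 0.17) and with the common spread (0.24, adjusted p = 0.065). Rbm47, a cofactor of mRNA editing found in epithelia, had 0.21, 0.44 and 0.69 in terminal end buds and −0.27, −0.09 and 0.27 in ducts (difference 0.47, SE 0.10, limma adjusted p = 0.00596). Rbmx, the X-linked hnRNP G, had 0.18, 0.52 and 0.69 in terminal end buds and −0.004, 0.14 and 0.23 in ducts (difference 0.35, SE 0.09, limma adjusted p = 0.0106). Rbm4 completed the higher calls at 0.26 (adjusted p = 0.0468), a call that held in 4 of 12 fits without 1 array and was lost under quantile normalization (0.17, adjusted p = 0.23). The cold-induced Rbm3 gave −0.11 (adjusted p = 0.652) and −0.02 (adjusted p = 0.925) on 2 probes, and the 19 Rbm probes that did not pass had differences of −0.35 to 0.54.

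**Figure D4:**
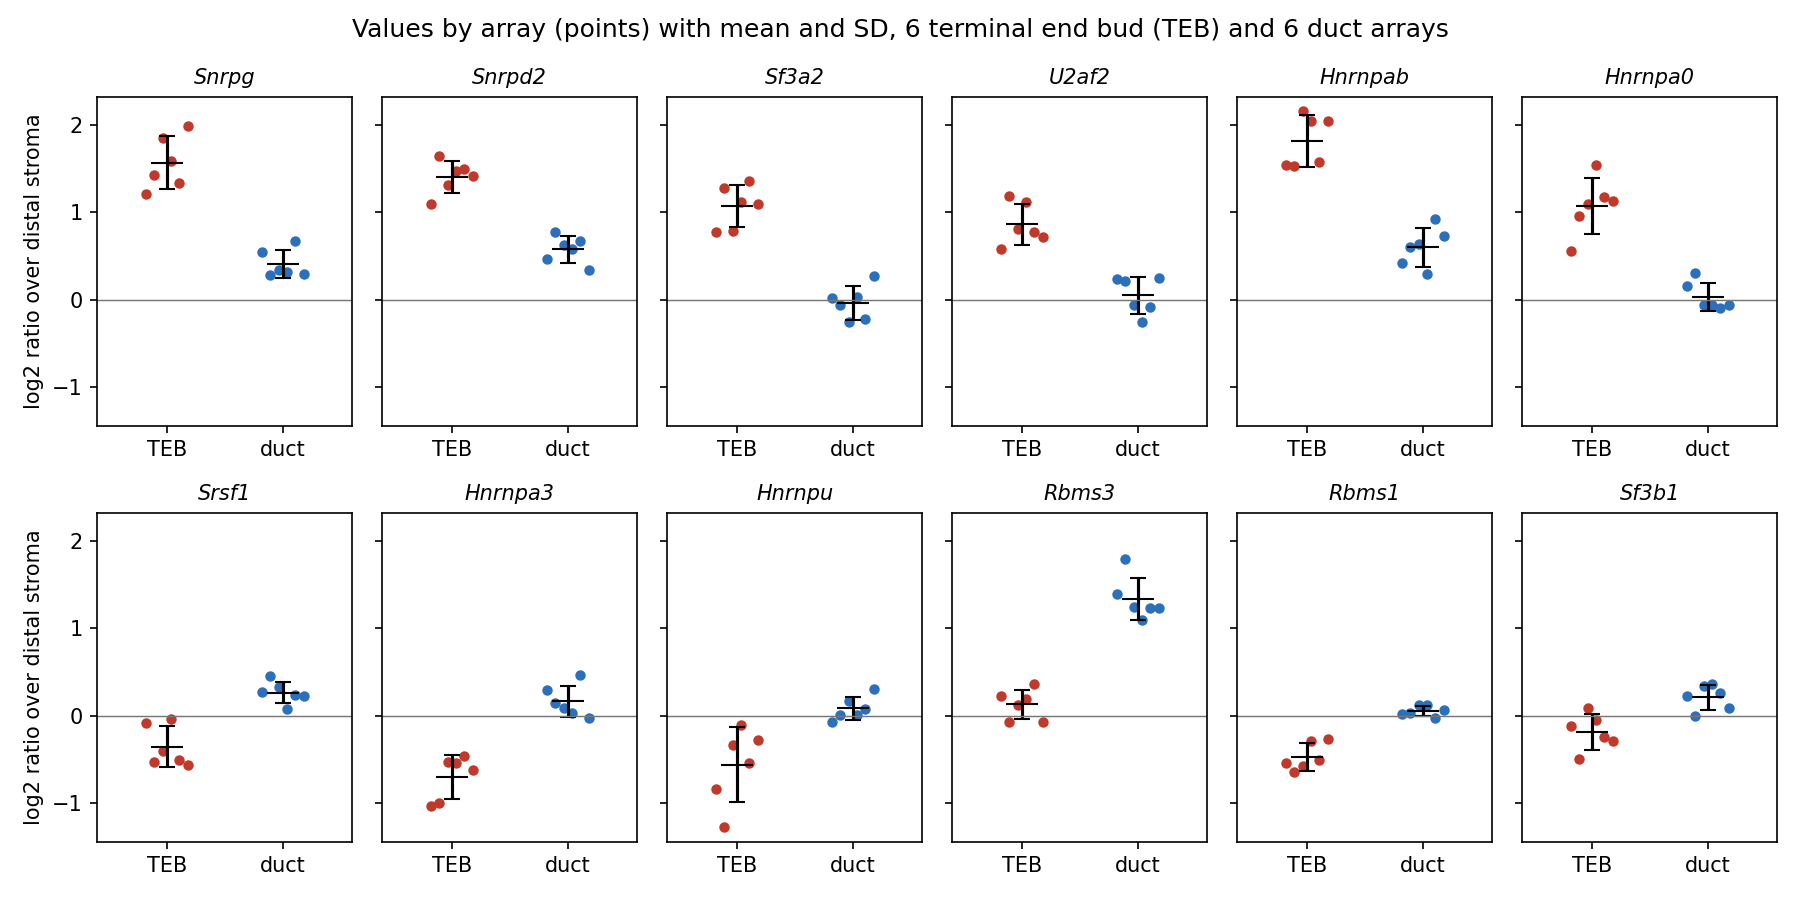
Log2 ratio over distal stroma on each array (points) with the mean and SD of 6 arrays, terminal end buds (TEB) left of ducts, for 12 called genes. The upper row holds genes higher in terminal end buds, such as Snrpg at 1.21 to 1.98 against 0.28 to 0.67 in ducts, and the lower row genes lower there, such as Rbms3 at −0.07 to 0.36 against 1.10 to 1.79.

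The comparisons with stroma asked where each member stood relative to tissue without epithelium. In terminal end buds 41 of 93 probes were higher (44.1%, against 23.2% of all probes) and 15 lower (16.1%, against 20.4%), with a median of 0.13, against 0.01 over all probes. In ducts 37 were higher (39.8%, against 16.0%) and 3 lower (3.23%, against 12.2%), with a median of 0.16, against 0.02. Higher in both structures were 23 probes (24.7%, against 10.8%), and lower in both 2, namely Rbm28 and a probe of Snrpn (against 9.42%). Calls in opposite directions were made for 1 probe of Srsf1 and for Rbm12b1 (2.15%, against 0.989%). At least 1 above stroma were 10 probes in terminal end buds (10.8%, against 3.74%), and in ducts 1 (1.08%, against 1.81%). None was called at least 1 below stroma in either structure, where 3.48% and 0.603% of all probes were. Both comparisons share the stroma.

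By family, Snrp probes were above stroma in 7 of 11 cases in terminal end buds and 4 of 11 in ducts, Sf3a probes in 3 of 4 and 0 of 4, and Sf3b probes in 5 of 6 in both. For hnRNP the counts were 7 of 21 and 8 of 21, for SR proteins 6 of 12 and 7 of 12, for Prpf 2 of 9 and 2 of 9, for U2af 2 of 2 and 1 of 2, and for Rbm 9 of 28 and 10 of 28. Below stroma were 4 hnRNP, 4 Rbm, 2 SR, 2 Snrp, 2 Prpf and 1 Sf3a probes in terminal end buds, against 2 Snrp probes and 1 Rbm probe in ducts. Over all probes 23.2% were above stroma in terminal end buds and 16.0% in ducts, and 20.4% and 12.2% were below. In terminal end buds Prpf lay near these shares, with 22.2% above and 22.2% below. The shares below stroma there were also near it for hnRNP (19.0%) and Snrp (18.2%). All 22 probes higher in terminal end buds than in ducts were also above stroma there, and 12 of them above stroma in ducts. Of the 14 lower probes 10 were below stroma in terminal end buds and 6 above stroma in ducts. These overlaps reuse the array values that chose the probes, so they partly follow from that choice and are no separate support. The same overlaps over all probes were not counted. Of the called genes, 45 of 50 against stroma in terminal end buds and 23 of 35 in ducts kept their call in all 12 fits without 1 array. The duct calls that did not were those of Srsf9, Sf3b2, Prpf6, Rbm17, Rbm42, Rbm12b1, Srsf1, Hnrnpul1, Rbm28, Rbm4, Snrpn and Sf3b1, and in terminal end buds those of Sf3a3, Hnrnpdl, Rbms2, Prpf4b and Srsf10. In 24 of the 93 probes no comparison passed.

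Several members that did not pass between the structures were among the extremes of their family against stroma. Srsf5 had −0.52, 0.26 and 0.98 in terminal end buds and 0.52, 0.64 and 0.88 in ducts, and was called above stroma in ducts (mean 0.69, adjusted p = 0.00258). Srsf6 had −0.10, 0.42 and 0.48 in terminal end buds and 0.39, 0.63 and 0.83 in ducts, above stroma in both. The probe of Srsf2 that passed in both had 0.21, 0.71 and 0.98 in terminal end buds and 0.46, 0.52 and 1.004 in ducts. All 3 are SR proteins, and on these probes the ducts lay above 0 on every array. The other probe of Srsf2 ran from −0.20 to 0.36 in ducts and was not called. Sf3b6, the subunit next to the branch point, had 0.39, 0.46 and 0.63 in terminal end buds and 0.26, 0.37 and 0.44 in ducts. Rbm42 had 0.23, 0.47 and 0.75 in terminal end buds and 0.09, 0.25 and 0.44 in ducts on 1 probe, also above stroma in both. Its other probe was level with stroma, with means of 0.004 and −0.008 (limma adjusted p of 0.963 and 0.942), so the probes disagree. Rbm43 (mean 0.33, adjusted p = 0.00447) and Prpf6, a bridging protein of the tri-snRNP (0.20, adjusted p = 0.0168), passed in ducts alone, with arrays of −0.14 to 0.41 and −0.10 to 0.17 in terminal end buds, against 0.15 to 0.62 and 0.08 to 0.38 in ducts. Rbm28, a nucleolar protein bound to U6, was below stroma in both, with −0.64, −0.54 and −0.14 in terminal end buds and −0.73, −0.33 and 0.07 in ducts.

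**Figure D5:**
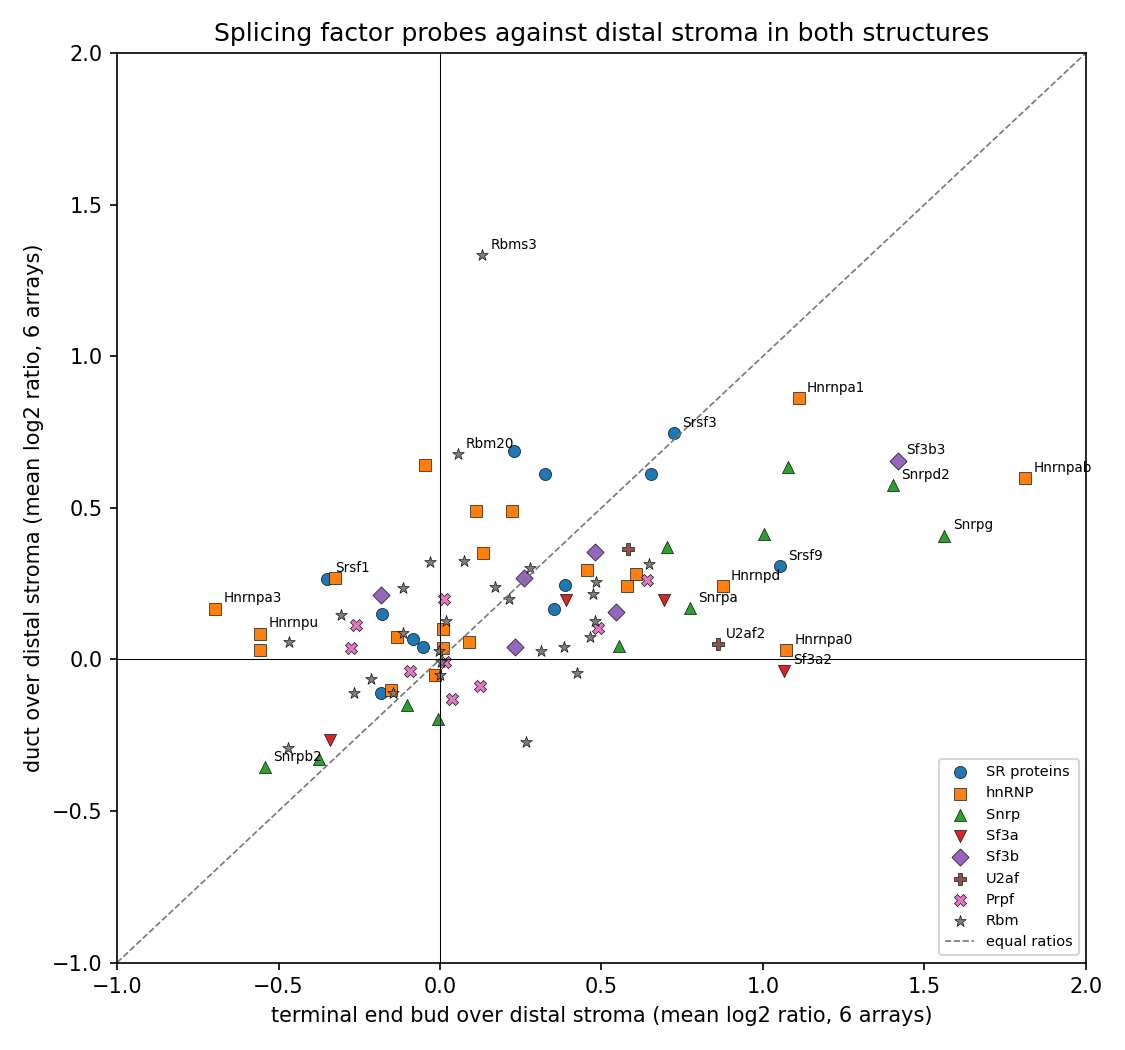
Mean log2 ratio over distal stroma in terminal end buds (horizontal) and in ducts (vertical) for the 93 probes, by family, with the line of equal ratios dashed. Hnrnpab, Snrpg, Sf3b3 and Snrpd2 lie far to the right below the line, Rbms3 far above it, and Srsf3 close to it.

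Genes with several probes limit how single genes can be read, since 12 of the 81 genes had more than 1. No gene had probes called in opposite directions. For Srsf1, Hnrnpa3, Sf3a1 and Sf3b3 1 probe was called between the structures and the other was not. Hnrnpll, Hnrnpr, Rbm3, Rbm4b, Rbm42, Snrpn, Srsf2 and Srsf11 had no called probe in that comparison. Which transcript each probe detects was not examined.

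Other splicing genes outside these names, from lists chosen with earlier results in view, were set beside them. Over all probes 8.32% were higher in terminal end buds than in ducts and 10.4% lower. Of 31 measured genes for Sm-like proteins, snRNP assembly and other snRNP proteins, 10 were higher (32.3%) and 0 lower. Among them were Lsm2, part of the U6 ring, at 0.81 (limma adjusted p = 1.79e-05), Snu13, a protein of U4, at 0.58 (adjusted p = 0.000389) and Lsm3 at 0.52 (adjusted p = 0.000691). Of 23 genes of the catalytic core, helicases and branch point factors 6 were higher (26.1%) and 3 lower (13.0%). They included Sf1, which binds the branch point before U2, at 0.85 (limma adjusted p = 0.000268) and Slu7, a factor of the second step, at −0.51 (adjusted p = 0.00986). Of 17 genes of the exon junction complex, cap binding and export 9 were higher (52.9%) and 2 lower (11.8%). The export helicase Ddx39a was at 1.08 (limma adjusted p = 2.53e-05), the coactivator Srrm1 at 0.82 (adjusted p = 9.55e-06) and Pnn at −0.86 (adjusted p = 0.00041). The lower call of Thoc1 (−1.63, adjusted p = 0.0461) held in 3 of 12 fits without 1 array, as did the higher call of Alyref (0.88, adjusted p = 0.0423), whose difference was 0.57 without duct replicate 4.

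Of 37 other regulators of alternative splicing 3 were higher (8.11%, against 8.32% of all probes) and 10 lower (27.0%, against 10.4%). Mbnl1, which drives adult splicing patterns in muscle, had −2.15, −1.70 and −1.34 in terminal end buds and −0.29, −0.12 and 0.02 in ducts (difference −1.62, limma adjusted p = 7.16e-06). Qk, a regulator of glial and mesenchymal splicing, had −2.52, −2.07 and −1.67 in terminal end buds and −0.98, −0.72 and −0.30 in ducts, below stroma in both (difference −1.34, limma adjusted p = 6.53e-05). Luc7l3 was lower too (−0.99, adjusted p = 1.24e-05). Ptbp1, the polypyrimidine tract repressor, had 0.999, 1.52 and 1.67 in terminal end buds and 0.46, 0.53 and 0.84 in ducts (difference 0.83, limma adjusted p = 0.000314), and Khdrbs1 was higher by 0.73 (adjusted p = 0.00767). Rbfox2 (0.20, adjusted p = 0.132) and Tra2b (−0.33, adjusted p = 0.253) did not pass. Among 7 kinases of SR proteins 2 were higher (28.6%), Srpk2 at 0.72 (limma adjusted p = 0.00328) and Srpk1 at 0.60 (adjusted p = 0.02). Clk4, at −0.87 (adjusted p = 0.00016), was lower (14.3%). For Srpk2 the mean of the gene's probes did not pass (adjusted p = 0.17).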

How the data were processed

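For 12 arrays of the mouse mammary gland the authors deposited a table of normalized values, 1 column per array, which were read as log2 ratios and used as deposited, being the level in Cy5 (terminal end bud or duct) over Cy3 (distal stroma), with the direction taken per the labels. The sources used here give neither the log base nor how arrays were scanned, corrected and normalized. Array medians lay between 0.01 and 0.023. Groups came from the labels' source names, and replicate numbers only name arrays.

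The table held 17589 probes, of which 14136 had 1 gene symbol, 13 several and 3440 were unnamed here. Symbols of 14029 probes, all 93 member probes among them, were matched to RefSeq genes of GRCm38.p6 and 0 changed. Where a gene had several probes, counts of genes used its most complete probe, or the earliest listed of equals. Probes needed values on at least 4 of 6 arrays per group, which left out none, and 1 member probe had 1 missing value, which the fit dropped.

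Tests used limma 3.58.1 in R 4.3.3 (lmFit, eBayes, two-sided): 1 fit of both group means over 12 arrays gave the difference of the structures and each mean against 0. The Benjamini-Hochberg adjustment covered all probes. Simulated arrays held 17589 probes of independent normal noise. Of these probes 68, 75 and 57 were given changes of 0.5, 1 and 2 on the log2 scale. The test of terminal end bud against duct recovered 45.6%, 93.3% and 98.2% of these changes, with 7 false calls. That against stroma recovered 77.9%, 98.7% and 100%, with 10. Far fewer probes changed there than were called in the data, and the adjusted p depends on that share. The rates thus describe the simulated setting and not the real arrays. Array number limits the precision.

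The member families, the other gene lists, the roles and the promoter motifs were chosen with earlier results of these data known. Any member could be named. Values by array were given for up to 5 genes per family with the largest called differences, for the extremes against stroma, for opposite calls and for a list of well known splicing factors. Alternatives changed the centring, normalization, spread, probe filter, variance model, array weights, blocks, single arrays and the handling of several probes. Promoters were the RefSeq bases before the first listed start.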

Additional observations from a re-analysis of the deposited data

Results flagged for a closer look

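A single array stood apart from the other 5 of its group in 9 sets of 6 arrays, by Dixon's criterion. The sets tested were those of 81 genes in both structures, except Hnrnpa1 in ducts, which had 5 values. Chance alone gives about 1 in 20 such sets. In terminal end buds these were Rbm38 on replicate 4 (−1.962, others 0.088 to 1.272), Srsf6 on replicate 2 (−0.105, others 0.281 to 0.478), Rbm4b on replicate 3 (−0.876, others −0.109 to 0.277), Hnrnpa2b1 on replicate 2 (0.86, others −0.268 to 0.062), Hnrnpm on replicate 4 (−0.338, others −0.025 to 0.143), Prpf40b on replicate 1 (0.101, others −0.193 to −0.083) and Prpf19 on replicate 5 (0.768, others 0.352 to 0.495). In ducts they were Srsf11 on replicate 4 (−1.328, others −0.081 to 0.517) and Hnrnpf on replicate 5 (0.218, others −0.259 to −0.103). Of these genes only Prpf19 was called between the structures.

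For Rbm12b1 and Srsf1 the structures were called on opposite sides of the stroma, and the test of the difference itself was passed by both (terminal end bud minus duct −0.45 and −0.62, limma adjusted p of 0.000606 and 0.00111). Both duct calls were lost in some fits without 1 array.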

How the results depend on the processing

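Of the 36 genes called between terminal end bud and duct, 31 kept the call in all 12 fits without 1 array and 25 also kept it under the 10 alternatives run on all arrays, and all 36 had the same sign within the early (2 arrays per group) and the late (4) title numbers. Without 1 array, 21 to 24 probes were higher in terminal end buds (22 with all arrays) and 10 to 16 lower (14). Quantile normalization gave 15 higher and 14 lower, and the common spread 16 and 14. Quantile normalization ended the calls of Snrpe, Hnrnph2, Sf3a1, Prpf31, Rbm4, Hnrnpl, Snrpa1, Prpf4b, Prpf18 and Rbm10. The early arrays alone gave 5 higher and the late ones alone 8 lower. Of the 36 called genes 24 were also called in the late arrays alone, and 26 lost the call in the early arrays alone. Against stroma, probes higher in ducts (37) were 15 in the early arrays alone. Probes lower than stroma in ducts (3) were 6 under quantile normalization and with the common spread, 0 in the late arrays alone (limma, 5 at an unadjusted p under 0.05) and 1 to 4 without 1 array, with 1 each without duct replicates 2 and 5. Without 1 array, 39 to 44 probes were above and 13 to 16 below stroma in terminal end buds, and 31 to 39 above stroma in ducts.

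Reversed signs came for Rbms2 against stroma in terminal end buds (0.31, early arrays alone −0.05), Srsf2 there (−0.08, mean of its probes 0.285, adjusted p = 0.0179) and Alyref in ducts (−0.05 with all arrays, −0.161 to 0.27 without 1 array, the highest without duct replicate 4, adjusted p = 0.0165). The causes were not tested. Replicate numbers follow record order and were not used for pairing. The 6 pairs of neighbouring title numbers as a block (consensus correlation 0.0722) gave 22 higher and 14 lower, ending the calls of Hnrnph2 (adjusted p = 0.066) and Rbm4 (0.058) and adding Rbm6 (0.043) and Hnrnpul1 (0.019).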
